A study of Mus musculus with 2 samples.

Results

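The 10 genes Fos, Fosb, Jun, Junb, Jund, Egr1, Btg2, Socs3, Nr4a1 and Nr4a3 were taken by name from the 13774 genes of a single-cell count table, and all 10 had a row there. They were chosen for their levels in these same cells, in which some of them differed in opposite directions between cell types, so their levels and ratios are a description and carry no test. The series set 2 mouse libraries side by side, 1 per group. NEC, called normal endothelial cells in the labels, came from the mammary gland, and TEC, tumor endothelial cells, from EO771 tumors, a mammary tumor line that had grown in the mammary fat pad for about 3 weeks. Both groups were female C57BL6/J mice, 8 weeks old, with the genotype Cdh5Cre-ERT2:ZSGreen l/s/l and given tamoxifen, so that the fluorescent protein ZSGreen marked cells in which the endothelial Cdh5 promoter had driven Cre. Tissue was digested with collagenase, dispase and DNAse, and live ZSGreen+ cells were sorted. The labels do not say whether the NEC glands came from tumor-bearing mice, nor how many mice were pooled. The columns taken as NEC are named control, and that match rests on the word alone.

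The cells of the table used here did not carry the markers of the labelled cell type, and whether the table holds all sorted cells is not given in the sources used here. None of the 13 clusters could be named endothelial-like, and the 13 pan-endothelial markers in the table (of 14 listed) summed to 49.9 unique molecular identifiers (UMIs) per 1000000 in NEC and 123.7 in TEC over all cells. The classes compared here are therefore leukocytes, and the cells with the highest levels were epithelial-like and fibroblast-like. The kept cells were 1794 in NEC, with a median of 2259 UMIs and 3.21% mitochondrial UMIs, and 997 in TEC, with a median of 8594 UMIs and 1.59%. Over all cells the table held 5228289 UMIs for NEC and 16444540 for TEC, and 2 cell barcodes occurred in both libraries. With 1 library per group no difference has a replicate check, and library, depth and tissue cannot be told apart. All intervals are 95% intervals and cover counting error only.

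Immediate early genes are transcribed within minutes of a stimulus, without new protein synthesis, and most of their messages are short-lived. Fos and Fosb encode partners that pair with the products of Jun, Junb and Jund to form the AP-1 transcription factors; Egr1 encodes a zinc finger factor, and Nr4a1 and Nr4a3 encode orphan nuclear receptors that antigen receptor signals induce in lymphocytes. Btg2 encodes an antiproliferative protein that promotes removal of poly(A) tails, and Socs3 encodes an inhibitor of cytokine receptor signalling through JAK and STAT3, itself induced by that pathway. In macrophages these genes respond to microbial and cytokine signals and in T cells to the antigen receptor. Enzymatic digestion of tissue is also known to induce many of them.

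The promoters of Fos and Btg2 are shown because both genes differed in opposite directions in macrophage-like and T-like cells and no annotated exon overlapped their windows. RefSeq (GRCm38.p6) gave windows for 9 of the 10 genes, all but Egr1, and the 250 bases before the transcription start were searched on both strands. Capitals mark the matched motifs: TGACGTCA, the cyclic AMP response element, TGACG, its shorter core, which is part of every full element, and TATAAA, the TATA box. In the GENCODE vM21 annotation of GRCm38, Fos lies on chromosome 12 (85473890 to 85477273), Btg2 on chromosome 1 (134075170 to 134079120) and Socs3 on chromosome 11 (117966079 to 117970047). The Fos window is chr12:85473640-85473889 on the plus strand, and the Btg2 window is chr1:134079156-134079405 on the minus strand.
Fos: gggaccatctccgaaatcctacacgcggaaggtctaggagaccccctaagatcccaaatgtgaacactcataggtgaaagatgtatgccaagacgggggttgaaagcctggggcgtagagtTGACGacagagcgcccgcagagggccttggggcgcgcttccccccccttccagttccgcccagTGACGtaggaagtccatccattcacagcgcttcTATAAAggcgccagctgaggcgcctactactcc
Btg2: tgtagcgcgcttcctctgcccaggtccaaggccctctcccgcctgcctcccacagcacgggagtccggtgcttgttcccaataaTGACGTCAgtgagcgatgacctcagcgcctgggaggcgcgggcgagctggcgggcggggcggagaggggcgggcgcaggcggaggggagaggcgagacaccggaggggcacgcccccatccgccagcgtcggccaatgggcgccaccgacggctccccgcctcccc
The Fos window held TGACG at 129 and 66 bases before the start and TATAAA at 33 bases. The Btg2 window held the full TGACGTCA at 166 bases before the start, an element found in 1.55% of the 32851 windows of the same length. Annotated exons of the same gene covered 152 bases of the Nr4a3 window and 6 of the Fosb window. TGACG occurred in 6 of the 9 windows (Fos, Fosb, Junb, Btg2, Nr4a1 and Nr4a3) and in 17.8% of all windows. The Socs3 window, which overlapped an annotated Socs3 exon by 77 bases and is not printed, held TTCTTAGAA at 154 bases, a match to the STAT motif TTCNNNGAA, which 7.02% of all windows held. No member window held TGANTCA, the AP-1 motif (6.75% of all windows), GCGTGGGCG, the EGR motif (0.536%), or a CArG box (1.47%). The Jund window ended at base 70697738 of chromosome 8, while the GENCODE gene starts at 70698949, so it does not adjoin that start. The Nr4a1 window (101266596 to 101266845 of chromosome 15) lay inside the GENCODE gene, which starts at 101254269. The Socs3 window (117969367 to 117969616) also lay inside its GENCODE gene. Bases further upstream, variant letters and the Egr1 promoter were not searched, so absence from a window does not mean that a gene lacks the element. These matches describe letters only, and no binding was measured.

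In macrophage or monocyte-like cells (307 NEC, 596 TEC), Fos, Btg2 and Socs3 were higher in TEC, and Fosb, Jund, Egr1 and Nr4a3 were lower. A gene was called when its ratio (TEC over NEC) of summed UMIs per 1000000 (CPM) reached 2-fold up or down and 1 lay outside the counting interval; this is the size rule below. Of the 10 genes, all with at least 50 UMIs, 3 met it as higher and 4 as lower. Over the 6683 genes compared, 22.6% met it as higher and 6.58% as lower; the genes were picked from this contrast, so nothing is read from their counts. After a TMM-type scaling 1071 of all genes compared were higher and 639 lower, in place of 1509 and 440, and 2 of the 10 genes were higher (Fos and Socs3) and 4 lower. The median log2 ratio was 0.17 over the 10 genes and 0.38 over all genes compared. Jund, at 2.01-fold lower, lay just inside the rule, and Jun, with a ratio of 1.98, just outside it.

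Among the AP-1 genes of these cells, Fos stood at 206 CPM in NEC (245 UMIs) and 553 CPM in TEC (2833 UMIs), a ratio of 2.68 (2.36 to 3.07). Fosb went the other way, with 383.5 CPM in NEC and 109.7 in TEC, 3.49-fold lower (3.08 to 3.96). The kit counts each molecule once at its 3' end, so UMIs of 2 genes are set side by side without a length scale: those of Fosb were 1.86 times those of Fos in NEC and 0.198 times in TEC. Jun had 132.9 CPM in NEC against 263.0 CPM in TEC, with a ratio of 1.98 (1.68 to 2.35). Junb, with 515.6 CPM in NEC against 630.2 CPM in TEC and a ratio of 1.22 (1.12 to 1.33), was called in neither direction. Jund, often described as the constitutive Jun gene, was at 647.6 CPM in NEC and 321.6 in TEC (2.01-fold lower, 1.85 to 2.19). UMIs of Fos were 0.318 times those of Jund in NEC and 1.72 times in TEC.

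Of the other factors, Egr1 was at 58.0 CPM in NEC (69 UMIs) and 25.4 in TEC (130 UMIs), 2.29-fold lower (1.68 to 3.08). The 2 receptor genes differed from each other: Nr4a1 stood at 73.2 and 75.96 CPM, a ratio of 1.04 (0.821 to 1.33), and Nr4a3 at 79.1 and 20.7 CPM, 3.82-fold lower (2.86 to 5.09). Both feedback genes were higher. Btg2 was at 107.7 and 249.6 CPM (ratio 2.32, 1.93 to 2.80), and its call was lost with a TMM-type scaling (ratio 1.99) and as the mean of per-cell CPM (1.89). Socs3 was at 88.3 and 292.3 CPM (ratio 3.31, 2.71 to 4.07). No single cell carried these differences, since the cell richest in each of Fos, Btg2 and Socs3 held at most 8.57% of a library's UMIs of that gene.

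**Figure D1:**
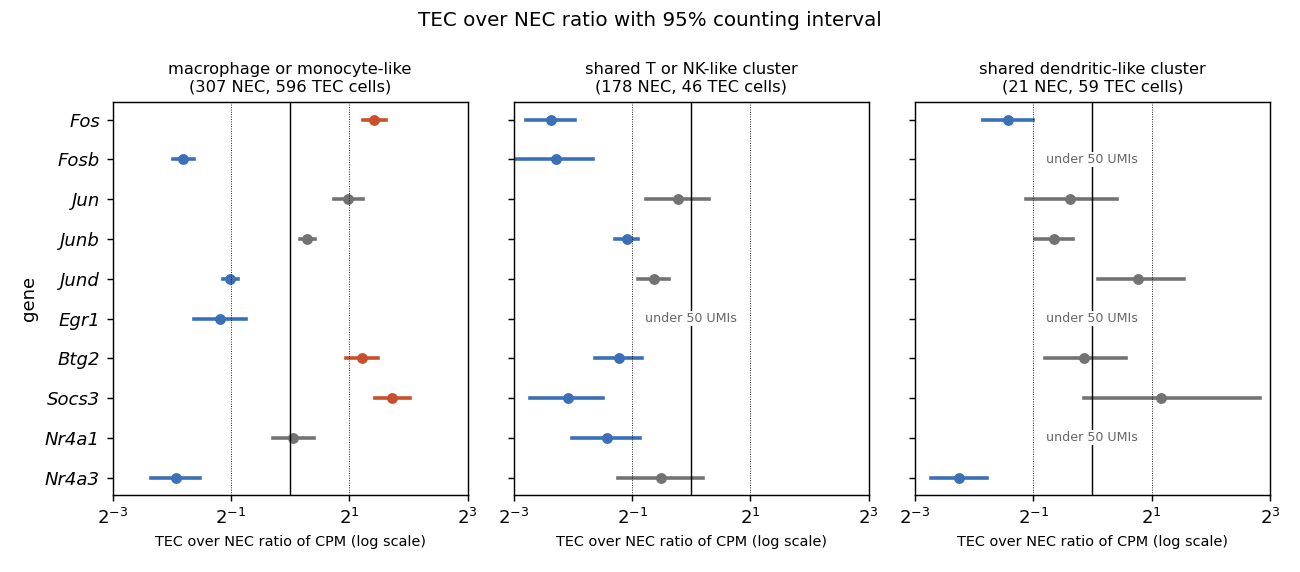
Ratio of summed CPM, TEC over NEC, on a log axis for each of the 10 genes in 3 sets of cells; points are ratios, bars 95% counting intervals, dotted lines mark 2-fold, red points met the size rule as higher and blue as lower. Fos lies at 2.68 in the macrophage or monocyte-like cells and at 0.193 in the shared T or NK-like cluster, and genes with under 50 UMIs are not drawn.

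The 4 lower calls in macrophage-like cells came with 1 NEC cluster. The NEC cells of this class lay mostly in cluster 3 (179 cells, led by Retnla, Lyz1 and Fcrls) and cluster 5 (99 cells, led by Ace and Treml4), while 586 of the 596 TEC cells lay in cluster 6. Fosb stood at 561.3 CPM in cluster 3 and 60.2 in cluster 5, Jund at 863.5 and 243.5, Egr1 at 76.5 and 2.87 (1 UMI), and Nr4a3 at 110.1 and 22.9 (8 UMIs). Without the NEC cells of cluster 3 the ratio was 1.28 for Fosb (0.923 to 1.83) and 1.13 for Jund (0.939 to 1.36), and 0 of the 10 genes were lower. The direction of Fosb and Jund therefore turned with the choice of NEC cluster, an alternative added after the values were seen.

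The higher calls did not depend on that choice. Fos stood at 201.4 CPM in cluster 3 and 226.4 in cluster 5, and the ratio to the TEC cells was 2.75 (2.33 to 3.26) and 2.44 (1.95 to 3.10). The ratio for Btg2 was 2.41 (1.92 to 3.08) against cluster 3 and 2.81 (1.97 to 4.15) against cluster 5, and for Socs3 it was 3.35 (2.61 to 4.36) and 3.40 (2.37 to 5.06). Jun met the rule against cluster 3, with a ratio of 2.76 (2.17 to 3.55), and not against cluster 5, with 1.53 (1.18 to 2.02). Nr4a1 had a ratio of 1.89 against cluster 3 and 0.603 against cluster 5.

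**Figure D2:**
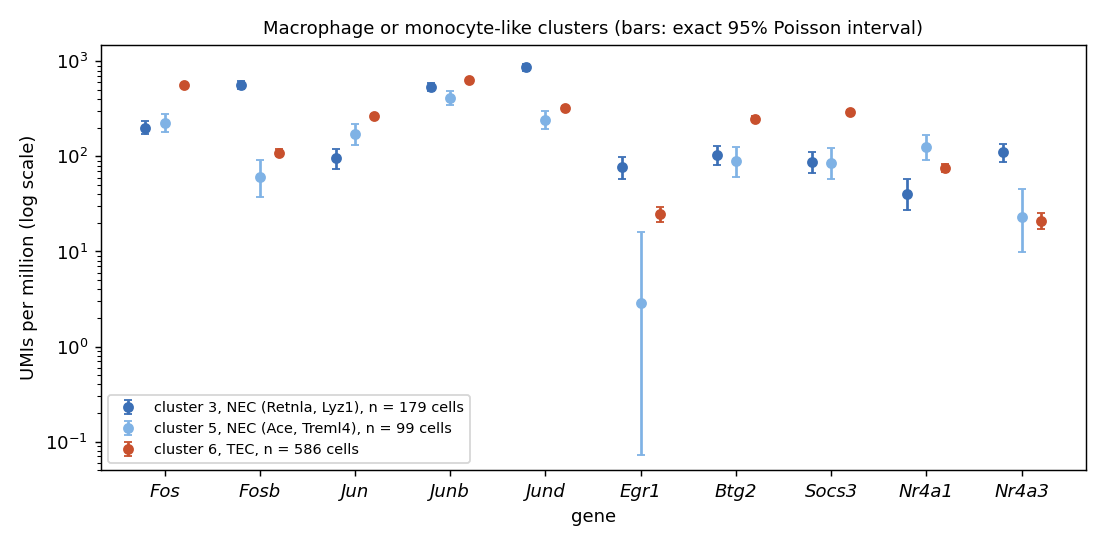
CPM on a log axis for each of the 10 genes in NEC cluster 3, NEC cluster 5 and TEC cluster 6; bars are exact 95% Poisson intervals. Fosb, Jund, Egr1 and Nr4a3 are highest in NEC cluster 3, while Fos, Btg2 and Socs3 are highest in TEC cluster 6.

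In the T or NK-like cluster that held cells of both libraries (178 NEC, 46 TEC, led by Gzma, Tnfrsf4 and Gzmb), 6 of the 9 genes with at least 50 UMIs were lower in TEC and 0 were higher. Over the 2303 genes compared there, 12.5% met the rule as lower and 22.3% as higher. With the TMM-type scaling 345 of all genes compared were higher and 397 lower, in place of 514 and 287, and the same 6 members were lower. The median log2 ratio was -1.22 over the 9 genes and 0.28 over all genes compared. Fos stood at 556.2 CPM in NEC (341 UMIs) and 107.6 in TEC (57 UMIs), 5.17-fold lower (3.90 to 6.97). Fosb, at 221.8 and 45.3 CPM, was 4.90-fold lower (3.16 to 7.90). Junb, at 1197 and 562.6 CPM, was 2.13-fold lower (1.86 to 2.44).

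Both feedback genes were lower in these T or NK-like cells. Btg2 was at 334.4 and 143.5 CPM, 2.33-fold lower (1.78 to 3.07), and Socs3 at 225.1 and 52.9 CPM, 4.26-fold lower (2.82 to 6.64). Nr4a1, known as a reporter of antigen receptor signals, was at 177.8 and 66.1 CPM, 2.69-fold lower (1.82 to 4.06). The other 3 met the rule in neither direction: the ratio was 0.852 for Jun (0.586 to 1.23), 0.643 for Jund (0.536 to 0.770) and 0.705 for Nr4a3 (0.424 to 1.15). Egr1 had 32 UMIs in NEC and 12 in TEC and was not compared.

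Depth moved with these levels. The NEC cells of the T or NK-like cluster with under 4000 UMIs (126 cells) held Fos at 826.8 CPM, those with 4000 or more (52 cells) at 268.95 CPM, and the TEC cells, all deeper, at 107.6 CPM. Socs3 stood at 266.1, 181.5 and 52.9 CPM in the same order, and Nr4a1 at 272.4, 77.3 and 66.1 CPM. Against the deeper NEC cells alone, Fos and Socs3 met the rule as lower (log2 ratio -1.32 and -1.78), while Btg2 (-0.69), Junb (-0.60) and Nr4a1 (-0.23) did not. Fosb stood at 358.0, 77.3 (23 UMIs) and 45.3 CPM (24 UMIs) in the same order. It fell under 50 UMIs against the deeper NEC cells and was not compared there. The call of Nr4a1 was also lost over all T or NK-like clusters (ratio 0.711), and that of Junb with only the cells that held a Cd3 UMI (0.591), an alternative added after the values were seen. In macrophage-like cells the shallower NEC cells (185 cells) also held more Fos, at 288.5 CPM against 158.8 CPM in the deeper ones (122 cells), so the TEC level of 553 CPM lay above both. Against the deeper NEC macrophage-like cells, Jund (ratio 0.567) and Egr1 (0.6395) lost their lower calls. The part of depth in these differences was not tested.

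Fos, Btg2 and Socs3 were thus the members called higher in the macrophage-like and lower in the T or NK-like cells of TEC, 3 of the 9 compared in both. Over the 2250 genes compared in both sets of cells, 21 (0.933%) had this combination and 27 were opposite in either sense. The members were picked for this pattern. Fosb was lower in both sets, as were 78 genes (3.47%) in all, but it had too few UMIs to compare against the deeper NEC T or NK-like cells. The difference between the 2 sets of cells was not tested, since each library gives 1 value per set.

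Every cell was thinned to 1000 UMIs to compare shares of cells across depths, and the thinned shares of Fos, Fosb, Btg2 and Socs3 had the direction of their CPM in both sets. Of macrophage-like cells, 16.3% in NEC (12.3 to 20.9) and 32.6% in TEC (28.8 to 36.5) held a Fos UMI, and 8.14% and 21.8% held a Socs3 UMI. For Fosb the shares were 28.7% and 10.9%, and for Jund 42.0% and 23.8%. Without thinning, 34.2% of NEC and 80.9% of TEC macrophage-like cells held a Fos UMI, and 47.9% and 43.96% a Fosb UMI. In the shared T or NK-like cluster a thinned share of 29.2% in NEC (22.7 to 36.5) stood against 10.9% in TEC (3.62 to 23.6) for Fos, and 16.3% against 2.17% (1 of 46 cells) for Nr4a1. For Nr4a3 there the shares (3.93% and 10.9%) went against the CPM, so no order is read from them. The intervals of the shares in NEC and TEC overlapped there for all 10 genes, for Socs3 for example at 15.6 to 28.1% and 2.42 to 20.8%. Without thinning, the Fos shares in that cluster were 56.7% and 63.0%, a difference in the other direction that goes with the deeper TEC cells. No class here is known to lack Fos, so free RNA from broken cells cannot be told apart from expression; the lowest thinned share among the named NEC classes was 13.3%, in B or plasma-like cells.

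**Figure D3:**
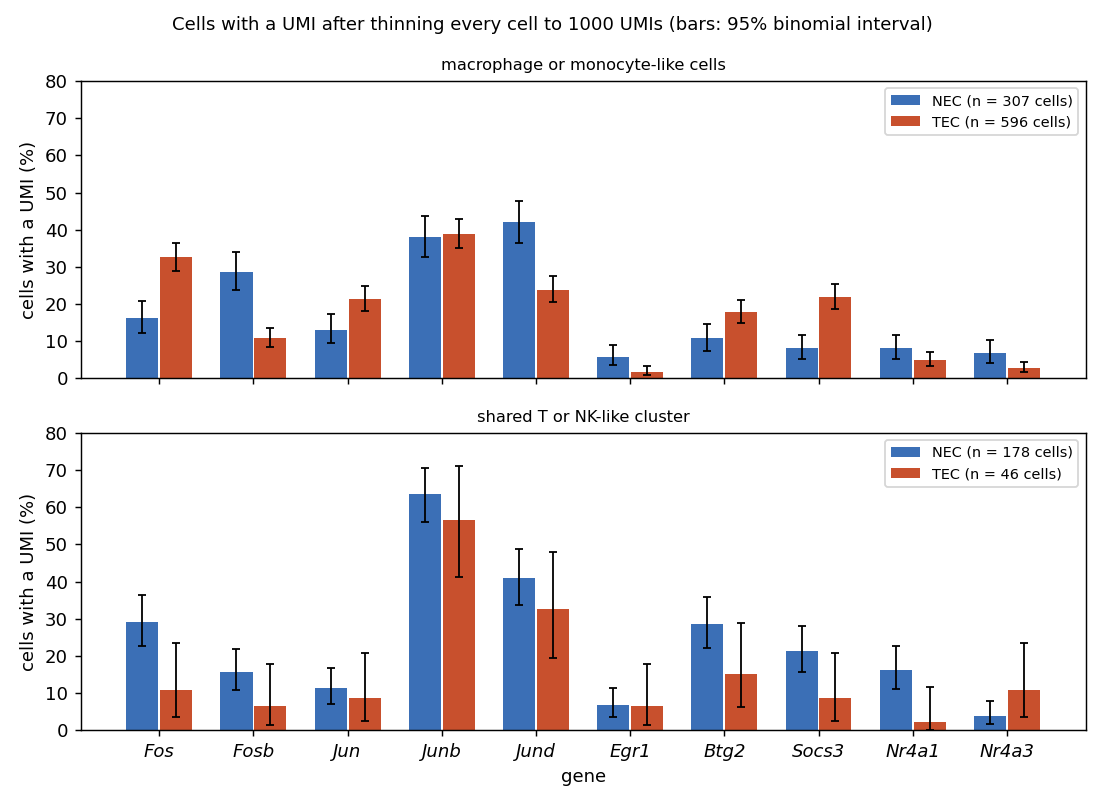
Share of cells with a UMI of each gene after every cell was thinned to 1000 UMIs, in macrophage or monocyte-like cells (top) and the shared T or NK-like cluster (bottom); bars are shares and error bars 95% binomial intervals. Fos is in 16.3% of NEC and 32.6% of TEC cells in the upper panel and in 29.2% and 10.9% in the lower one.

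The shared dendritic-like cluster (21 NEC and 59 TEC cells, led by Ccl22 and Il12b) gave values for 7 genes, and its NEC sums rest on few cells. Fos was at 729.7 CPM in NEC and 270.3 in TEC, 2.70-fold lower (2.01 to 3.60), but 1 NEC cell held 37.0% of its NEC UMIs. The call was lost at clustering resolution 0.4 (ratio 0.915, 0.729 to 1.16) and with clusters made without the members and lists (ratio 0.794, 0.633 to 1.01), settings that put more cells of both libraries into the dendritic-like set. Nr4a3 was at 739.7 and 155.0 CPM, 4.77-fold lower (3.44 to 6.61), and was found in 20 of the 21 NEC cells. Jun, Junb, Jund, Btg2 and Socs3 met the rule in neither direction. Over all 1493 genes compared there, 19.4% were higher and 5.83% lower. Jun had 19 NEC UMIs, of which 1 cell held 78.9%, and without the richest cells its ratio turned from 0.766 to 3.01 (1.12 to 11.4). Fosb, Egr1 and Nr4a1 had too few UMIs to compare. UMIs of macrophage and T-cell genes were unevenly spread here as well. The cells were not thinned for this, and their median depth was 4670 UMIs in NEC and 8485 in TEC. Whether these UMIs came from other cells was not tested. A UMI of Lyz2, Csf1r, C1qa, C1qb or C1qc was found in 2 of the 21 NEC and 46 of the 59 TEC cells. A UMI of Cd3d, Cd3e or Cd3g was found in 1 NEC and 17 TEC cells. No comparison without those cells was made in this cluster.

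Across 14 groups of cells (a cluster within a library, at least 20 cells), the epithelial-like NEC cells (31 cells) and fibroblast-like NEC cells (73 cells) had the highest levels of Fos. It was at 6120.4 CPM (5740 to 6519) in the epithelial-like and 2634 CPM (2428 to 2852) in the fibroblast-like cells. The next in order were the dendritic-like NEC cells at 729.7 CPM, and then TEC cluster 6 at 558 CPM and the shared T or NK-like NEC cells at 556.2 CPM, 2 neighbours whose intervals overlap. The lowest level of Fos, 74.2 CPM, was in the unnamed cluster 9 of NEC (27 cells, led by Spib, Zcwpw1 and Ccr9), and the span from lowest to highest was 82.4-fold. Egr1 reached 1277 and 995.4 CPM in the epithelial-like and fibroblast-like cells and was at most 76.5 CPM in the other 12 groups. Of the 10 genes, 8 were highest in the epithelial-like cells. For other members the fibroblast-like cells were close to the next group: Btg2 stood at 447.7 CPM there and at 445.7 in cluster 10 of TEC, a dendritic-like cluster. The exceptions were Socs3, highest in the fibroblast-like cells (482.5 CPM), and Nr4a3, highest in the dendritic-like NEC cells (739.7 CPM) and at 6.36 CPM (1 UMI) in the epithelial-like cells.

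The spread of the 10 genes over groups was not uniform. Junb varied least, 6.76-fold between cluster 5 of NEC and the epithelial-like cells, and Nr4a3 most, 255.7-fold above its lowest level in the unnamed Rhox5 cluster of TEC. Egr1, with 0 UMIs in 1 group, has no span. Junb took 47.2% of all UMIs of the 10 genes in the larger T or NK-like cluster of NEC (496 cells, led by Lef1 and Tcf7 among others) and 12.7% in the epithelial-like cells. Jund took 49.4% in cluster 9 and 5.71% in the dendritic-like NEC cells. In the TEC macrophage-like cells Junb (24.8%), Fos (21.8%) and Jund (12.7%) made up most of the sum, and in their NEC counterparts Jund (28.3%), Junb (22.5%) and Fosb (16.7%) did.

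**Figure D4:**
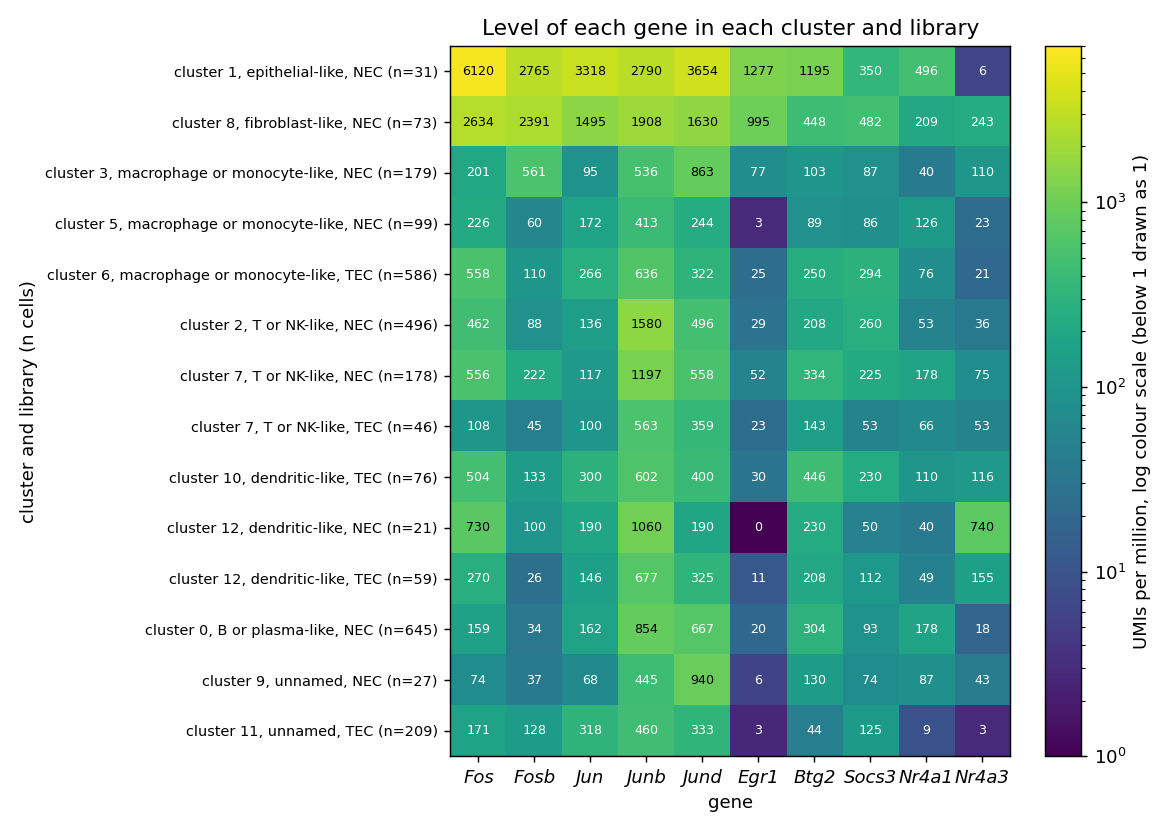
CPM (printed, and as colour on a log scale) of each gene in the 14 groups of cells with at least 20 cells. The epithelial-like and fibroblast-like rows of NEC are the brightest for all genes but Nr4a3, which peaks at 740 in the dendritic-like cells of NEC.

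Over these 14 groups, the genes whose pattern was most like that of Fos, among 5402 genes with at least 50 CPM in a group, were Jun (Pearson's r of log2(CPM + 10) 0.88) and then Maff, a small Maf factor gene (0.88), Ppp1r15a, a stress-induced phosphatase regulator (0.87), Auts2 (0.87), Mdk (0.85) and Aldh1a3 (0.84). Auts2, Mdk and Aldh1a3 were at 0 in at least 1 group. Junb (0.86) and Fosb (0.82) were also near, Jund (0.54) and Nr4a1 (0.59) less so, and Nr4a3 (0.13) was not. For Socs3 the most like were Tmem59 (0.87), Csrnp1 (0.78), Ddx58 (0.77), Pgs1 (0.76) and Irgm1 (0.76). The groups share 2 libraries and their depths, and the 2 groups with the highest levels weigh on every value.

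In single macrophage-like cells most member pairs occurred together more often than the product of their shares. In the larger T or NK-like cluster of NEC they occurred together about as often as that product. In each set of cells thinned to 1000 UMIs, the number of cells with both genes of a pair was divided by that product, over genes present in at least 5% of the cells. In TEC macrophage-like cells 27 of 28 member pairs were above 1, with a median of 1.29; the median over all gene pairs there was 0.998 and the 90th percentile 1.42. Fos and Socs3 were found together in 54 cells where 42.3 would follow from their shares (ratio 1.28), and Fos and Fosb in 35 where 21.2 would (1.65). The highest ratio was that of Btg2 with Nr4a1 (2.25) and the lowest that of Socs3 with Nr4a1 (0.917).

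In NEC macrophage-like cells 34 of 45 pairs were above 1, with a median of 1.37 beside 0.995 for all pairs. Btg2 with Nr4a1 was again the highest (2.98), and Fos with Nr4a3 the lowest, with 0 cells holding both. Neither pair kept its place at 2000 UMIs, where the highest was Egr1 with Nr4a1 (2.48) and the lowest Egr1 with Socs3 (0.731). The NEC macrophage-like set mixes clusters: the median was 1.19 within cluster 3 and 2.01 within cluster 5. Thinned to 2000 UMIs it was 1.18 within cluster 3 and 1.06 within cluster 5 (23 of 36 pairs above 1), so the cluster 5 value did not hold at that depth. The NEC cells of the shared T or NK-like cluster had a median of 1.197 beside 1 for all pairs, with 28 of 36 pairs above 1. The ratios ran from 0.582 for Egr1 with Btg2 to 3.71 for Fosb with Egr1. Its TEC cells had a median of 1.04 beside 0.885 for all pairs (19 of 36, from 0 for Fos with Socs3 to 3.29 for Jun with Btg2). Of those 46 TEC cells, Fos was found in 5, Socs3 in 4, Jun in 4 and Btg2 in 7. The extremes there therefore rest on very few cells, and nothing is read from them. The medians were 1.02 in the other T or NK-like cells of NEC, 1.16 in B or plasma-like cells, 1.11 in fibroblast-like cells and 1.16 in the Rhox5 cluster. For all pairs the median was 0.9125 in the fibroblast-like cells and 1 in each of the others. Thinned to 2000 UMIs, the median was 1.17 in NEC and 1.201 in TEC macrophage-like cells, and 1.06 and 1.12 in the shared T or NK-like cluster. In that cluster the median for all pairs was 1 in NEC and 0.954 in TEC at this depth. In all of these sets the member median lay below the 90th percentile of all pairs.

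Few leukocytes held many of the 10 genes at once. At 1000 UMIs, 3 or more were found in 30.3% of NEC and 27.3% of TEC macrophage-like cells, and 5 or more in 3.91% and 4.87%. In the shared T or NK-like cluster 3 or more were found in 41.0% of NEC and 17.4% of TEC cells, and 5 or more in 9.55% and 0 of 46. In epithelial-like cells 5 or more were found in 87.1%, and in fibroblast-like cells in 47.9%. The count of genes per cell was thus close between libraries in macrophages, whose summed level of the 10 genes was 2292 CPM in NEC and 2542 CPM in TEC, while different members made it up.

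**Figure D5:**
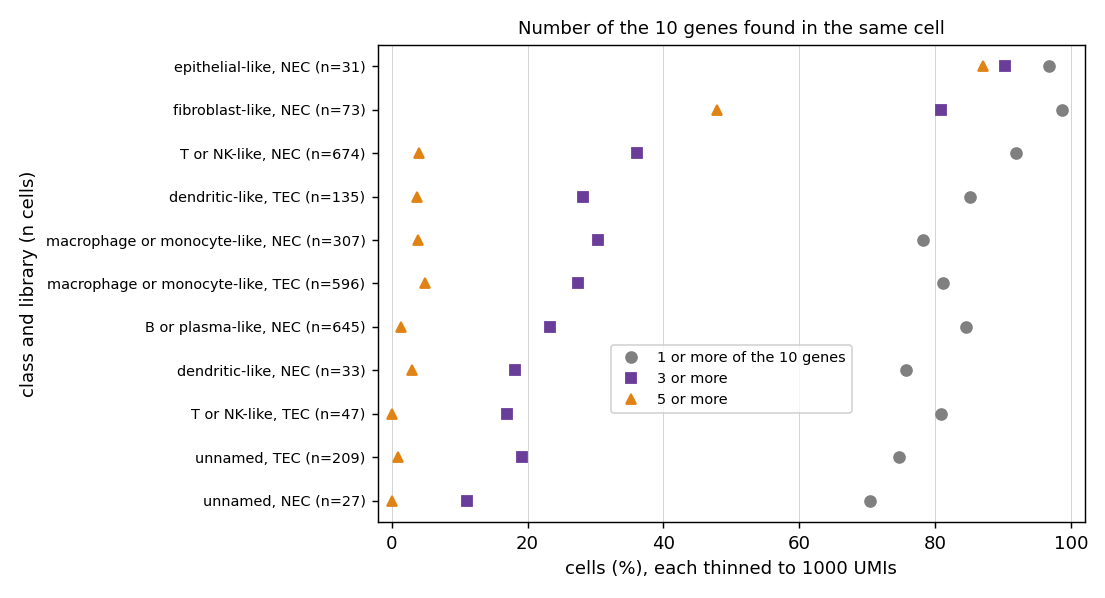
Percent of cells in which at least 1, 3 or 5 of the 10 genes were found after thinning each cell to 1000 UMIs, by class and library, in order of the mean number per cell. The share with 5 or more is 87.1% in epithelial-like and 47.9% in fibroblast-like cells of NEC and under 5% in every leukocyte class drawn and in both unnamed clusters.

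Genes known to rise when tissue is digested give the background for these values. A list of 32 such genes holds 9 of the 10 members, all but Nr4a3. Of the 22 other genes of the list compared in macrophage-like cells, 0 were higher in TEC and 4 lower (Klf4, Hspa1b, Mt1 and Mt2), with a median log2 ratio of -0.14. Of the 19 others compared in the shared T or NK-like cluster, 0 were higher and 8 lower (Atf3, Ier2, Dusp1, Zfp36, Klf2, Klf4, Hspa1a and Ppp1r15a), with a median of -0.79. Of 17 in the dendritic-like cluster, 2 were higher (Ier3 and Cebpb) and 4 lower (Atf3, Hspa1a, Mt1 and Mt2). Whether digestion had a part in any difference was not tested, and the time from dissection to sorting is not given in the sources used here.

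Few heat shock and chaperone genes were called. The 14 genes summed to 3644 CPM in NEC and 3693 in TEC macrophage-like cells, where 0 were higher and 2 lower (Hspa1b 3.89-fold, Dnajb4 2.92-fold). In the T or NK-like cluster they summed to 4918 and 6825 CPM, with Hspd1, a mitochondrial chaperone gene, higher (ratio 2.68) and Hspa1a lower (3.89-fold). Metallothionein genes, which bind zinc and copper and respond to metals and glucocorticoids, summed to 9773 CPM in NEC and 1174 in TEC macrophage-like cells; Mt1 was 8.68-fold and Mt2 7.12-fold lower. Their sum was 14349 CPM in NEC cluster 3, the cluster rich in Fosb, Jund, Egr1 and Nr4a3, and 1917 CPM in NEC cluster 5. In the T or NK-like cluster the metallothionein sum was 770 and 1271 CPM, and neither gene compared met the rule. The epithelial-like NEC cells, with the highest levels of 8 members, also had the highest heat shock sum, 25003 CPM. Hspb1, a gene of that list, was among the top 10 genes of their cluster, so cell type and stress cannot be told apart in this sum. The metallothionein sum was 5523 CPM in these cells and highest, at 24810 CPM, in the fibroblast-like NEC cells.

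Other early genes were compared in the same 2 sets of cells, beside the shares over all genes given above. Of 13 other immediate early genes compared in the T or NK-like cluster, 5 were lower and 0 higher (median log2 ratio -0.54), among them Klf4 (3.36-fold), Ier2 (2.68-fold) and Btg1 (2.25-fold), a relative of Btg2. Of 19 in macrophage-like cells, 1 was lower (Klf4, 2.06-fold) and 0 higher (median 0.01). Among other AP-1 and ATF genes, Fosl2 was 3.87-fold and Atf3 2.69-fold lower in the T or NK-like cluster, and Batf, an AP-1 factor of activated T cells, was higher (ratio 2.56). In macrophage-like cells Batf was 2.95-fold, Mafk 2.499-fold and Atf4 2.004-fold lower, with Maff the other of 4 lower among 8 compared.

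Of the other feedback genes called, most were higher in macrophage-like cells and all were lower in the T or NK-like cluster. Higher calls also outnumbered lower ones over all genes compared in macrophage-like cells (22.6% and 6.58%). The same held in the T or NK-like cluster (22.3% and 12.5%). The difference between the sets was not tested. Of 8 MAP kinase feedback genes compared in macrophage-like cells, 4 were higher in TEC and 0 lower (median 0.67): the phosphatase genes Dusp4 (ratio 11.03, from 2 NEC UMIs, 2.97 to 92.4), Dusp6 (3.30) and Dusp2 (3.13), and Errfi1. In the shared lymphocyte cluster 4 of 5 were lower and 0 higher (median -1.32), with Dusp10 7.64-fold, Dusp1 2.84-fold and Dusp5 2.502-fold lower and Dusp2 the other. Of cytokine and NF-kappaB feedback genes, 4 of 15 were higher and 1 lower in macrophage-like cells, with a median of 0.29, below that of all genes. The higher genes included Socs1 (6.32), Nfkbie (3.88) and Cish (2.95), the first and last of these being relatives of Socs3. Bcl3 was 2.45-fold lower. Of 12 compared in the T or NK-like cluster, 5 were lower and 0 higher, with a median of -0.79. Among the lower were Tnfaip3 (4.11-fold), an inhibitor of NF-kappaB signalling, Zfp36l2 (2.71-fold) and Pim1 (2.51-fold), a kinase gene induced by cytokines.

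Activation markers and early cytokine genes, which share upstream signals with the members, were mixed. The list of early cytokine genes also holds Ptgs2, an enzyme gene. In TEC macrophage-like cells 5 of its 9 genes compared were higher (Ccl4 ratio 35.0, Ccl3 17.2, Il1b 12.4, Ptgs2 and Osm). Another 2 were lower (Cxcl1 3.76-fold, Il6 2.45-fold). Over all genes compared in these cells, 22.6% were higher and 6.58% lower. In the T or NK-like cluster the activation genes Tnfrsf9 (4.35) and Il2ra (3.79) were higher in TEC, and Cd69, an early activation marker, was 2.57-fold lower. Proliferation markers there summed to 663.8 CPM in NEC and 3494 in TEC.

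Transcripts of other cells were present in the sets compared, counted here in cells that were not thinned, with the TEC cells deeper. A UMI of Cd3d, Cd3e or Cd3g, T-cell receptor complex genes, was found in 11 of 307 NEC (3.58%) and 92 of 596 TEC (15.4%) macrophage-like cells, and the 11 T or NK markers in the table summed to 95.04 and 573.2 CPM. Without those cells the ratio was 2.83 for Fos (2.47 to 3.27), 2.27 for Btg2 (1.88 to 2.78) and 3.36 for Socs3 (2.74 to 4.16). In the T or NK-like cluster a UMI of Lyz2, Csf1r, C1qa, C1qb or C1qc was found in 18 of 178 NEC (10.1%) and 35 of 46 TEC (76.1%) cells, with the 16 macrophage markers at 358.8 and 813.7 CPM. Without those cells, 160 NEC and 11 TEC cells were left, and the ratio was 0.212 for Fos (0.115 to 0.361), 0.473 for Btg2 (0.274 to 0.769) and 0.123 for Socs3 (0.0249 to 0.367). The 6 neutrophil markers summed to 1844 CPM in NEC and 449.9 in TEC macrophage-like cells, with S100a8 highest, and to 25.5 and 123.2 CPM in NEC clusters 3 and 5. The 10 fibroblast and 9 epithelial markers, of the cells richest in the members, summed to at most 37.8 and 26.1 CPM in the macrophage-like and T or NK-like cells of either library. The number of TEC cells per class moved with the clustering. The main clusters held 47 T or NK-like and 596 macrophage-like TEC cells, as did those at resolution 0.4. Resolution 1.2 gave 101 and 539, and clusters made without the members and lists gave 101 and 528. The stricter cell filter gave 88 and 553. With Scrublet calls kept both classes were larger, the macrophage-like one at 619 cells. Which cells changed class was not tested.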

How the data were processed

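Single cells were profiled with the 10x 3' kit. The deposited values are UMI counts for each gene in each cell, without normalization. The submitters' processing notes name Cell Ranger 2.0.2, STAR 2.5.1b and Seurat with mm10, but no settings. The filter asked for 500 genes, 1000 UMIs and no more than 10% mitochondrial UMIs per cell and took out 5 NEC cells; Scrublet calls (7 in NEC, 3 in TEC) were removed as well. Clusters (13) came from log-normalised counts of 2000 variable genes through 30 principal components, a graph of 15 neighbors and Leiden at resolution 0.8 (scanpy 1.11.5, igraph 0.11.9). A cluster was named "X-like" from at least 3 markers of a class, each in at least 10% of its cells, at 50 CPM or more and 2-fold over the rest after adding 5 CPM. Cluster 9 met this for B or plasma markers but stayed unnamed, since as many of its top 10 genes were dendritic markers (Siglech) as B or plasma markers (Mzb1), a choice made after its genes were seen. The 10 genes were among those clustered.

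UMIs were summed per library and class. Ratios have exact Clopper-Pearson intervals conditional on the gene's total and were computed for genes with at least 50 UMIs over both sums and counts in both libraries; CPM has exact Poisson and shares exact binomial (Clopper-Pearson) intervals. A sum of 0 was set to 3 counts, which gives a bound. Fixed lists are described by counts of calls and medians. From each list the text names up to 3 genes with the highest lower bound and up to 3 with the lowest upper bound among those called, and other called genes by name only; for likeness it names the 5 best genes and for pairs the highest and the lowest. The other genes of the pairs printed for Fos were chosen after their values were seen. Motifs were matched letter by letter. The size rule was tested on simulated counts. The 10 genes, the lists and the settings were chosen with earlier results of these data known. Alternatives changed the cell filter, clustering, scaling, depth, thinning and cells left out.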

Additional observations from a re-analysis of the deposited data

Results flagged for a closer look

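Fos, Btg2 and Socs3 were called in opposite directions in 2 sets of cells under the same contrast. In macrophage-like cells the log2 ratio of TEC over NEC was 1.42 (Fos), 1.21 (Btg2) and 1.73 (Socs3). The shared T or NK-like cluster gave -2.37 (Fos), -1.22 (Btg2) and -2.09 (Socs3), and the shared dendritic-like cluster gave -1.43 for Fos, a call lost in 2 of 9 alternatives (log2 ratio up to -0.13). None of these differences between sets of cells was tested, since each group has 1 library.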

How the results depend on the processing

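The stricter cell filter raised all 3 cut-offs together and, like the other filter and clustering settings, made the clusters anew; the other alternatives moved 1 choice. Fos and Socs3 kept direction and call in all 14 alternatives in macrophage-like cells (log2 ratio 1.201 to 1.99 and 1.39 to 2.42) and in all 13 in the T or NK-like cluster (-3.03 to -1.32 and -3.03 to -1.78). The call of Btg2 was lost in 2 of 14 and 3 of 13: in macrophage-like cells with TMM-type scaling (log2 ratio 1.00) and as mean per-cell CPM (0.92), and in T or NK-like cells with the stricter cell filter (-0.98), without NEC cells under 4000 UMIs (-0.69) and over all T or NK-like clusters (-0.79). Jun in macrophage-like cells was called higher in 10 of 14. Lower calls were lost for Jund and Egr1 in 3 of 14 each (besides the turn of Jund below) and Nr4a3 in 1 in macrophage-like cells, for Junb and Nr4a1 in 2 of 13 each in T or NK-like cells, and for Fos in 2 of 9 in dendritic-like cells (log2 ratio -1.63 to -0.13). Without the NEC cells of the Retnla and Lyz1 cluster, an alternative added after seeing the data, Fosb (0.36) and Jund (0.17) turned direction in macrophage-like cells, as did Jun (1.59) in dendritic-like cells without the cells richest in it. The TMM-type scaling lowered every log2 ratio by 0.22, 0.25 and 0.07 in macrophage-like, T or NK-like and dendritic-like cells.

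Counts of called genes, given as members and then dissociation genes, moved as follows. In macrophage-like cells (main counts 3 and 3 higher, 4 and 7 lower), 2 members were lower and 6 dissociation genes higher and 3 lower with the stricter filter. Without NEC cells under 4000 UMIs, 2 members were lower, 5 dissociation genes higher and 3 lower. Without the Retnla and Lyz1 cluster, 0 members were lower, 6 dissociation genes higher and 2 lower. Dissociation genes called higher were 5 at resolution 1.2, without the richest cells, without cells with a Cd3 UMI and with that cluster as the only NEC cells. For T or NK-like cells (main 0 and 0 higher, 6 and 14 lower), 8 dissociation genes were lower with the stricter filter, and 2 members and 4 dissociation genes without NEC cells under 4000 UMIs. Over all T or NK-like clusters, 3 dissociation genes were higher and 9 lower, and 1 was higher without cells with a macrophage UMI (160 NEC, 11 TEC cells). In dendritic-like cells (main 0 and 2 higher, 2 and 5 lower), resolution 0.4 gave 1 member and 5 dissociation genes higher and 1 and 3 lower. Clusters made without the members and lists gave 1 member higher and 1 lower, mean per-cell CPM gave 1 member higher, and leaving out the richest cells gave 2 members and 4 dissociation genes higher. Fewer cells entered where cells were left out; otherwise the cause was not tested. The stricter filter left no shared dendritic-like cluster, so it was not run there. No paired analysis was possible because each group has 1 library. Depth limited Egr1 in the T or NK-like cluster (32 and 12 UMIs) and Fosb, Egr1 and Nr4a1 in the dendritic-like one.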
